A study of Arabidopsis thaliana with 2 samples.

Results

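The genes described are 6 lectin genes of Arabidopsis, AT1G52000, MBP2 (AT1G52030), MBP1 (AT1G52040), JAL22 (AT2G39310), JAL23 (AT2G39330) and JR1 (AT3G16470). Genomic DNA of 12-d-old seedlings was compared between Col-0, the wild type, and miP1a-OX plants, which express a FLAG-tagged miP1a microProtein from the 35S promoter (35S::FLAG-miP1a). There was 1 library per genotype, so no difference has a replicate check and every comparison is between 2 libraries. The study asked how a microProtein that delays flowering affects DNA methylation, and used whole-genome bisulfite sequencing, in which unmethylated cytosines are read as T while methylated ones are still read as C. The study's methods name MS plates and its sample records name soil as the growth medium.

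The authors cut the chromosomes into bins at a spacing of 100 bases and listed only those with p of at most 0.01 by Fisher's exact test between the libraries. A bin was assigned to a gene when it overlapped its body or the upstream 3000 bases and had at least 10 cytosine calls in each library. By that rule 19 of the 56731 listed bins belonged to the lectin genes. The genes were selected on the p-values of bins near them in this same contrast, and results of it were known when they were chosen. Their values are therefore a description, and no test is given for them. A methylation level is the methylated share of all cytosine calls of a bin, over every sequence context and both strands. Intervals are 95% Clopper-Pearson intervals for levels and Newcombe intervals for differences, and cover counting error only, since calls of 1 read are not independent.

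Jacalin-related lectins are carbohydrate-binding proteins that take their name from a lectin of jackfruit seeds. In Brassicaceae several of them bind myrosinase, the thioglucosidase that cuts glucosinolates when tissue is damaged, and are called myrosinase-binding proteins. Which product is then released, an isothiocyanate, a nitrile or an epithionitrile, depends on specifier proteins, some of which carry jacalin domains themselves. In plants, cytosines are methylated in the CG, CHG and CHH contexts (H is any base but G). Methylation of CG alone is common inside genes, whereas methylation in all contexts is typical of transposons and repeats.

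All 6 genes lie on the minus strand (TAIR10.1 coordinates). AT1G52000 (chromosome 1, 19333088 to 19336135), MBP2 (19345871 to 19349088) and MBP1 (19350314 to 19352791) form a cluster of 19704 bases. JAL22 (chromosome 2, 16414034 to 16416845) and JAL23 (16419483 to 16422158) form a cluster of 8125 bases, and JR1, a jasmonate-responsive gene, is on chromosome 3 (5595282 to 5599224). The genes of a cluster are similar in sequence. The best alignment of MBP1 with MBP2 had 87.9% identity over 1210 bases, and that of JAL22 with JAL23 had 85.8% over 864 bases. Across the clusters the best alignment of MBP1 with JAL22 had 67.9% identity over 632 bases.

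The bins below are those with the largest rise in the chromosome 1 cluster, the 2 that lie nearest to and farthest from the start of MBP1, the single bin of MBP2, and the 2 upstream of JAL23 that hold no CG. Sequences are the plus strand of TAIR10.1, and capitals mark CG dinucleotides.
AT1G52000, chr1:19337901-19337999: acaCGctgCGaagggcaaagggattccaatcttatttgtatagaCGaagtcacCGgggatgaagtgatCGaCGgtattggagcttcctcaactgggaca
MBP2, chr1:19347101-19347199: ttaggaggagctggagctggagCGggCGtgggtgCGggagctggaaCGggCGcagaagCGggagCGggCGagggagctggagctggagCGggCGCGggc
MBP1, chr1:19352901-19352999: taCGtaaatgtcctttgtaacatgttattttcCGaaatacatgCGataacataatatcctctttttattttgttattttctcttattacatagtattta
MBP1, chr1:19354701-19354799: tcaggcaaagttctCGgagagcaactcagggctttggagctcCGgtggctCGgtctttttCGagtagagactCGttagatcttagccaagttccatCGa
JAL23, chr2:16422401-16422499: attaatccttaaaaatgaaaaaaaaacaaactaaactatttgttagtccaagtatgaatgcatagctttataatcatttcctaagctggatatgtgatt
JAL23, chr2:16423101-16423199: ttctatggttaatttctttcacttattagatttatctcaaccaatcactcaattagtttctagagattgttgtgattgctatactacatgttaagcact
The MBP2 bin, a GC-rich repeat in a coding exon, holds 11 CG dinucleotides, and the MBP1 bins printed above hold 3 and 6.

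Listed bins were found at 5 of the 6 genes, and JR1 had none. The 19 bins were 5.51% of the 345 bins in the windows, where 4.71% of all nuclear bins are listed. Over all nuclear protein-coding genes 72.0% have at least 1 listed bin in such a window. Of the 19 bins, 15 had more methylation in miP1a-OX and 4 had less, beside 64.0% higher among all listed nuclear bins. Only 2 lay inside a gene and 17 lay upstream. Of the bins inside the genes 2 of 188 were listed (1.06%, beside 3.13% over all nuclear protein-coding genes), and of those upstream 17 of 157 (10.8%, beside 5.52%). The rule used this contrast, so nothing is read from these shares.

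The differences were small compared with the threshold of 0.4, or 40 percentage points, that the study used for a differing region. None of the 19 bins reached it, where 0.401% of all listed nuclear bins do. The absolute differences ran from 2.67 to 24.4 percentage points with a median of 10.2, beside 8.02 for all listed nuclear bins. At 3 bins the intervals of the libraries overlapped. The p-values of 3 bins stayed at or under 0.01 after Benjamini-Hochberg adjustment over the bins of the genome, namely the coding-exon bin of AT1G52000, its bin with the largest rise, and the farthest bin upstream of MBP1. The bins were listed by these same p-values, so this describes them only. Without the methylated calls that 1 DNA fragment could give, their differences were 0, +19.2 and +5.57 points, in that order.

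The bins were thinly to moderately covered. The Col-0 and miP1a-OX libraries had medians of 286 and 283 calls per bin. Their median depth, the calls per cytosine added over both strands, was 14.5 and 18.6. Over all listed nuclear bins it was 21.7 and 21.5. In 3 of the 19 bins 1 library had calls at fewer than 90% of the cytosines, which holds for 6.15% of all listed nuclear bins. At 8 bins the sequence has close copies elsewhere (at least 90% identity over at least 80 bases), as do 35.8% of all listed nuclear bins. How reads that match several copies were treated is not given in the sources used here, and the part of the copies or of the uneven coverage in the differences was not tested.

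AT1G52000, annotated as a mannose-binding lectin superfamily protein, had 5 listed bins, of which 4 were higher in miP1a-OX. Inside the gene, a bin of a coding exon (19334401 to 19334499, 1636 bases from the gene start) had 0 of 404 methylated calls in Col-0 (at most 0.743% with a limit of 3 calls) against 14 of 314 in miP1a-OX (4.46%, 2.46 to 7.37). This bin holds 8 cytosines in CG among its 51. Without the methylated calls that 1 DNA fragment could give, its difference was 0. The other 4 bins lie 665 to 1965 bases upstream, and 3 of those overlap the annotated pseudogene AT1G52010 on the opposite strand.

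The first upstream bin of AT1G52000 (19336801 to 19336899) rose from 41 of 172 calls (23.8%, 17.7 to 30.9) in Col-0 to 53 of 129 (41.1%, 32.5 to 50.1) in miP1a-OX. In the second (19337501 to 19337599) the levels were 53 of 234 calls (22.6%) and 21 of 46 (45.7%, 30.9 to 61.0). The miP1a-OX calls of that bin come from 14 of its 46 cytosines. The largest difference, +24.4 points, was in the bin printed above (19337901 to 19337999), with 39 of 144 calls (27.1%) in Col-0 against 152 of 295 (51.5%, 45.7 to 57.4) in miP1a-OX. There the Col-0 calls come from 23 of the 49 cytosines, so both of the largest differences compare unequal sets of cytosines.

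The fourth upstream bin (19338101 to 19338199) went the other way, from 119 of 262 calls (45.4%) to 58 of 177 (32.8%). It was covered at all of its 40 cytosines in both libraries. Neighbouring bins of the same pseudogene thus differed in opposite directions between the libraries. Pooled over the 5 bins, the level at AT1G52000 was 20.7% in Col-0 against 31.0% in miP1a-OX, a difference of +10.3 points (6.58 to 14.0). Over the bins with calls at 90% or more of the cytosines in both libraries it was +1.07 points, and without the calls that 1 DNA fragment could give in each bin +5.46. In the second upstream bin, where 14 cytosines had miP1a-OX calls, that removal took more than 1 fragment could give.

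MBP2, myrosinase-binding protein 2, had 1 listed bin, which lies in a coding exon 1889 bases from the gene start (19347101 to 19347199). The level was 20 of 315 calls (6.35%, 3.92 to 9.64) in Col-0 against 57 of 415 (13.7%, 10.6 to 17.4) in miP1a-OX, a difference of +7.39 points. The bin is the richest in cytosines of the 19, with 74, of which 23 are in CG, 19 in CHG and 32 in CHH. In both libraries the level was below the CG share of its cytosines, 31.1%. The calls of 1 DNA fragment could set this direction: less 56 methylated calls, the number of cytosines on the richer strand and so the most that a fragment could give, the difference was -6.07 points. The counts do not show which calls share a fragment.

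MBP1, myrosinase-binding protein 1, had 6 listed bins, the most of the 6 genes, and all of them lie upstream and were higher in miP1a-OX. The first 4 lie within 509 bases of the gene start and their levels were high in both libraries. The nearest (19352901 to 19352999) had 106 of 311 methylated calls (34.1%) in Col-0 against 92 of 187 (49.2%) in miP1a-OX. The next (19353001 to 19353099) had 49 of 272 calls (18.0%) and 88 of 282 (31.2%). In the 2 that follow, the level went from 40 of 302 calls (13.2%) to 45 of 192 (23.4%), and from 214 of 576 (37.2%) to 218 of 464 (47.0%).

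At 3 of these 4 bins the Col-0 level already exceeded the CG share of the cytosines (25.0%, 9.52% and 17.6%), and at the remaining one, with 13.3% CG, it was just below it. A level above that share cannot come from CG sites alone if sites are covered equally. Farther upstream the levels in Col-0 were low. The bin 1509 bases upstream (19354301 to 19354399) had 33 of 376 calls (8.78%) in Col-0 against 78 of 489 (16.0%) in miP1a-OX.

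The bin 1909 bases upstream of MBP1 (19354701 to 19354799) overlaps the non-coding RNA gene AT1G07777. It had 3 of 286 methylated calls in Col-0 (1.05%, 0.217 to 3.03) and 58 of 481 in miP1a-OX (12.1%, 9.28 to 15.3). The intervals of this bin are well apart, and it is the bin where the libraries differed by the largest factor among those with methylated calls in both. Pooled over the 6 bins the level at MBP1 was 21.0% in Col-0 against 27.6% in miP1a-OX, a difference of +6.68 points (4.09 to 9.25). This value is below the difference of each of the 6 bins (7.17 to 15.1), whose shares of the calls differ between the libraries, and the mean of the bins was +11.1 points. Within 1000 bases upstream the pooled value was +11.4 points, and without the methylated calls that 1 DNA fragment could give in each bin it was +3.16.

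**Figure D1:**
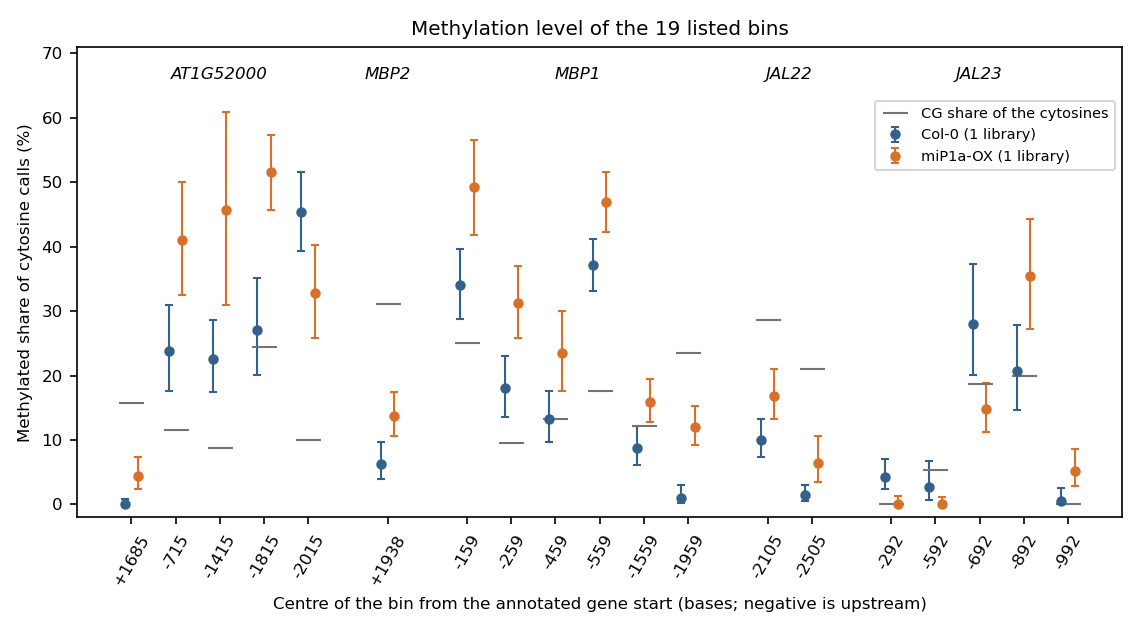
Methylation level (percent of cytosine calls, vertical axis) of the 19 listed bins in the Col-0 library (blue) and the miP1a-OX library (orange), by the distance of the bin's centre from the gene start in bases (horizontal axis). Points are levels of 1 library, bars are 95% Clopper-Pearson intervals, and grey ticks are the CG share of the bin's cytosines. All 6 bins of MBP1 are higher in miP1a-OX, while the 5 bins of JAL23 go both ways.

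The repeats upstream of AT1G52000 and MBP1 are not the same but have like copy numbers. The 4 upstream bins of AT1G52000 have 15 to 17 copies each, the best of them identical over all 99 bases. Copies of these 4 bins occur together at 15 loci. The 4 bins next to the start of MBP1 have 15 or 16 copies each, and all 4 occur together at 14 loci. The best copies of the MBP1 bins have about 98.0% identity. None of the 7 bins of JAL22 and JAL23 has such a copy.

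The bins with copies had the higher pooled levels. Pooled over the 8 bins, the level was 29.1% in Col-0 against 41.0% in miP1a-OX, and 7 of 8 were higher in miP1a-OX. In the 4 bins of the chromosome 1 cluster without a copy the level was 4.06% in Col-0 against 12.2% in miP1a-OX, and 4 of 4 were higher. The difference in the chromosome 1 cluster was +11.9 points over the bins with copies and +8.13 points over those without. The pooled value of the whole cluster, +7.29 points, is below both, because the bins with copies hold 2273 of 3654 calls in Col-0 but 1772 of 3471 in miP1a-OX.

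JAL22, jacalin-related lectin 22, had 2 listed bins, both higher in miP1a-OX. They lie 2055 and 2455 bases upstream, between AT2G39320 and the end of JAL23, and both also fall in the upstream window of AT2G39320. The first (16418901 to 16418999) had 43 of 431 calls (9.98%) in Col-0 against 64 of 379 (16.9%) in miP1a-OX. The second (16419301 to 16419399), 83 bases beyond the end of JAL23, had 6 of 426 calls (1.41%, 0.519 to 3.04) and 13 of 204 (6.37%, 3.44 to 10.7). Both were among the deepest of the 19 bins in Col-0, with depths of 41.0 and 44.8 (calls per cytosine added over both strands). Pooled, the level at JAL22 was 5.72% in Col-0 against 13.2% in miP1a-OX, a difference of +7.49 points (4.42 to 10.8), which was +4.09 without the calls that 1 DNA fragment could give in each bin.

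JAL23, jacalin-related lectin 23, had 5 listed bins within 942 bases upstream, 3 lower and 2 higher in miP1a-OX. The nearest (16422401 to 16422499), which has no CG, had 15 of 347 methylated calls (4.32%, 2.44 to 7.03) in Col-0 against 0 of 283 in miP1a-OX (a limit of 1.06%). The bin 542 bases upstream (16422701 to 16422799) had 4 of 150 calls (2.67%) and 0 of 328 (a limit of 0.915%). In the adjoining bin (16422801 to 16422899) the level was 32 of 114 calls (28.1%) in Col-0 against 53 of 358 (14.8%) in miP1a-OX. The Col-0 calls of that bin come from 13 of its 32 cytosines.

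The 2 bins farther upstream of JAL23 were higher in miP1a-OX. The first (16423001 to 16423099) had 33 of 159 calls (20.8%, 14.7 to 27.9) in Col-0 against 46 of 130 (35.4%, 27.2 to 44.2) in miP1a-OX. The second (16423101 to 16423199), the other bin with no CG, had 1 of 210 calls (0.476%) and 14 of 269 (5.20%, 2.87 to 8.58). In the 2 bins with no CG every methylated call lies in the CHG or CHH context, and these bins differed in opposite directions. Without the methylated calls that 1 DNA fragment could give, their differences were -0.599 points (nearest bin) and -0.476 points (farthest bin). Pooled over the 5 bins the levels of JAL23 were 8.67% and 8.26%, a difference of -0.413 points whose interval, -2.76 to 1.84, includes 0. Without the calls that 1 DNA fragment could give in each bin it was +1.45. In the bin starting at 16422801, where 13 cytosines had Col-0 calls, that removal took more than 1 fragment could give.

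JR1, also called JAL35, had no listed bin among the 71 in its window. The nearest listed bins lie 23376 bases upstream and 3682 bases downstream, with differences of +18.0 and +16.6 points. Only bins that passed the p threshold could be read, so the level at JR1 itself is not known. The nearest listed bin beyond the upstream window of AT1G52000, in the pseudogene AT1G52020, had 47.7% in Col-0 against 35.7% in miP1a-OX. That beyond the window of JAL23 had 0 of 285 calls in Col-0 against 14 of 499 (2.81%) in miP1a-OX.

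**Figure D2:**
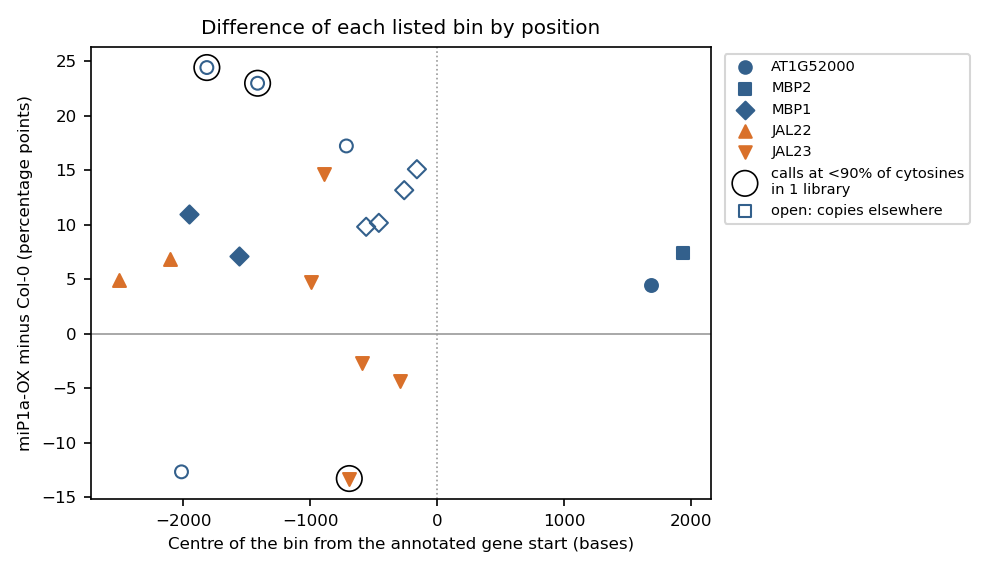
Difference between the libraries (miP1a-OX minus Col-0, percentage points, vertical axis) of each listed bin by the distance of its centre from the gene start in bases (horizontal axis). Blue symbols are the chromosome 1 cluster and orange the chromosome 2 cluster, open symbols are bins with close copies elsewhere, and black rings mark the 3 bins with calls at fewer than 90% of the cytosines in 1 library. The 3 ringed bins include the 2 largest rises and the largest fall.

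The clusters on chromosomes 1 and 2 had like shares of listed bins and unlike levels. In the chromosome 1 cluster 12 of 162 bins (7.41%) were listed, 11 higher and 1 lower in miP1a-OX. In the chromosome 2 cluster 7 of 112 bins (6.25%) were listed, 4 higher and 3 lower. Pooled over its bins, the chromosome 1 cluster had 19.6% methylated calls in Col-0 (717 of 3654) and 26.9% in miP1a-OX (934 of 3471). The chromosome 2 cluster had 7.29% (134 of 1837) and 9.74% (190 of 1951).

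The pooled difference was +7.29 points (5.33 to 9.24) in the chromosome 1 cluster and +2.44 points (0.663 to 4.22) in the chromosome 2 cluster, so the pooled value was 4.84 points larger on chromosome 1. As a mean of bins the gap was 9.30 points, and without the calls that 1 DNA fragment could give in each bin it was 0.472. That removal reduces the higher library of each bin, miP1a-OX at 11 of 12 bins on chromosome 1 and at 4 of 7 on chromosome 2. The gap therefore narrows partly by construction, and in a bin of each cluster more was taken than 1 fragment could give. Over bins with calls at 90% or more of the cytosines in both libraries it was 2.55. The sign of the chromosome 2 value depends on JAL22: within 1000 or 2000 bases upstream, where only the bins of JAL23 are left, it was -0.413 points. Without JAL23 the difference between the clusters was -0.204 points, and without JAL22 it was +7.70. The listed bins of the whole nuclear genome had a median difference of +5.26 points. Less that median, the cluster values were +2.02 points (chromosome 1) and -2.82 points (chromosome 2). These subtract a median of single bins from pooled values, which are unlike measures. The median differences of single bins were +10.6 points in the chromosome 1 cluster and +4.73 points in the chromosome 2 cluster.

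**Figure D3:**
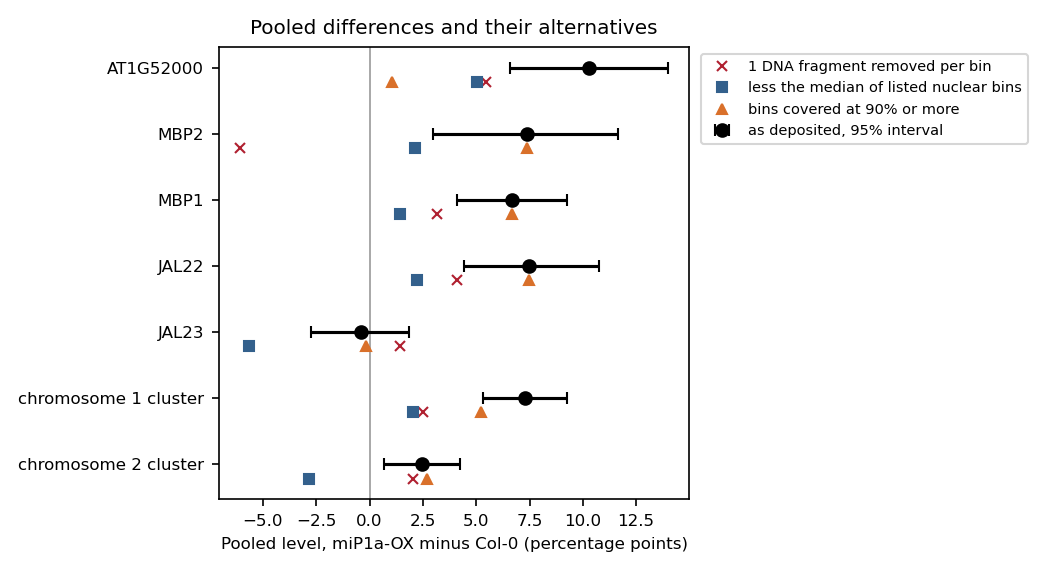
Difference in the pooled methylation level (miP1a-OX minus Col-0, percentage points, horizontal axis) of each lectin gene with a listed bin and of each cluster (vertical axis). Black points are the values from all listed bins with 95% Newcombe intervals, red crosses the values without the methylated calls that 1 DNA fragment could give in each bin, blue squares the values less the median of all listed nuclear bins, and orange triangles those from bins covered at 90% or more of the cytosines. The cross of MBP2 lies at -6.07 and the triangle of AT1G52000 at +1.07. The crosses of AT1G52000, JAL23 and both clusters include a bin where more calls were removed than 1 fragment could give.

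Among the genes between the members, the pseudogene AT1G52010 shares all 5 bins of AT1G52000 and AT2G39320 shares both bins of JAL22. The pseudogene AT1G52020, between AT1G52000 and MBP2, had 4 listed bins, 2 higher and 2 lower in miP1a-OX, 1 of them the coding-exon bin of MBP2. Its pooled level was 35.7% in Col-0 against 30.6% in miP1a-OX, a difference of -5.13 points (-8.85 to -1.39). This pooled value is opposite in sign to those of AT1G52000, MBP2 and MBP1 on either side. The single bins of the pseudogene ran from -12.0 to +21.7 points.

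Of the 41 other genes annotated as jacalin-related or mannose-binding lectins or myrosinase-binding proteins, 32 had a listed bin (beside 72.0% of nuclear protein-coding genes). Of the 84 listed bins of these 41 family genes, 58 (69.0%) were higher and 26 lower in miP1a-OX. In their windows 4.31% of the bins were listed. Both shares are near those over all nuclear bins, 64.0% and 4.71%. Their pooled difference was +2.92 points. The 7 family genes that continue the chromosome 1 array beyond MBP1, from AT1G52050 to AT1G52130, all had listed bins, 16 higher and 7 lower, with a pooled difference of +2.69 points.

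The myrosinase system was described by 14 genes, of which 10 had a listed bin. They comprise the thioglucosidases (TGG1, TGG2, TGG4, TGG5, PEN2, PYK10), the specifier proteins that steer the products (ESP, NSP1 to NSP5), ESM1, which promotes isothiocyanate formation, and its relative MVP1. Of their 44 listed bins 28 (63.6%) were higher and 16 lower, with a pooled difference of +3.73 points, and 5.48% of the bins in their windows were listed. Of all nuclear protein-coding genes 72.0% have a listed bin. Over all nuclear bins 4.71% are listed, and 64.0% of those listed are higher. NSP1 is also counted in the lectin family and had no listed bin.

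The largest pooled differences in both lists were rises. NSP5, a nitrile specifier protein, had 3 upstream bins and a level of 34.0% in Col-0 against 47.3% in miP1a-OX (+13.3 points, 8.30 to 18.2). The family gene AT1G60110 had 7 upstream bins, all higher, with 19.7% and 30.8% (+11.2 points). AT5G38540, another family gene, had 6 bins, 5 of them in the gene, with 20.5% and 30.9% (+10.4 points). MVP1 had 10 bins, 9 of them higher, with 16.3% and 25.1% (+8.79 points), and AT5G35950 had 3 bins with 14.9% and 23.3% (+8.49 points).

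These 5 genes, like MBP1 and AT1G52000, had pooled Col-0 levels above 14%, although single bins of some of them had 0. In the plot of the family by pooled difference, AT1G52000 ranks after NSP5, AT1G60110 and AT5G38540, and JAL23 lies near 0. Neighbouring windows can share bins, so the genes of the lists are not independent of each other.

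**Figure D4:**
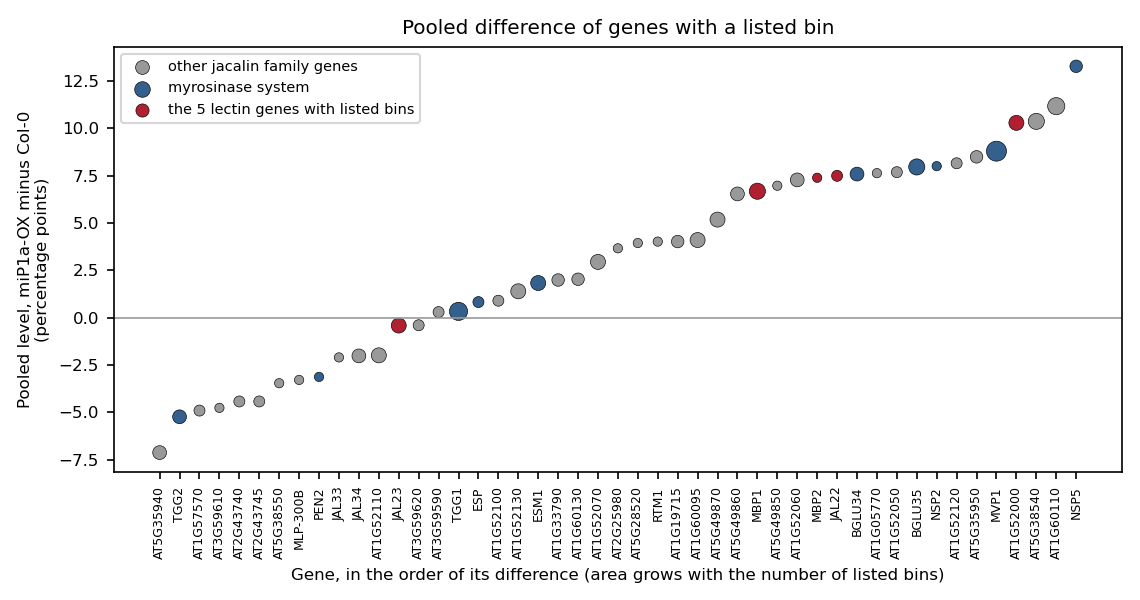
Difference in the pooled methylation level (miP1a-OX minus Col-0, percentage points, vertical axis) of every gene of the lectin family and the myrosinase system with a listed bin, in the order of the difference (horizontal axis). The area of a point grows with its number of listed bins, red points are the 5 described lectin genes, blue points the myrosinase system (BGLU34 and BGLU35 are TGG4 and TGG5), and grey points other family genes. The values run from -7.12 (AT5G35940) to +13.3 (NSP5).

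Genes with a like pair of pooled levels were sought over all nuclear protein-coding genes with at least as many listed bins as the richest gene of a cluster. For the chromosome 1 cluster, among 1884 genes with 6 or more bins, the nearest were AT2G34240 (19.5% in Col-0 against 26.9% in miP1a-OX, a distance of 0.123 points), NAC060 (0.413 points) and STK (0.416 points). For the chromosome 2 cluster, among 3205 genes with 5 or more bins, they were DJ1F (7.13% and 9.87%, a distance of 0.213 points), ACC1 (0.248 points) and AT5G26720 (0.307 points). The likeness rests on 2 libraries and on pooled calls alone.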

How the data were processed

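The data are bisulfite sequencing libraries of whole seedlings (12 d old), 1 per genotype. The authors mapped reads with BS-Seeker2 2.1.0 and Bowtie2 to TAIR9, and deposited counts of methylated and unmethylated calls for each bin, with no scaling. The deposited level of a bin is the fraction of its calls that are methylated. The deposited p-value comes from Fisher's exact test and is not adjusted. It was computed again from the counts (two-sided, scipy 1.17.1, python 3.11.15), and 0 bins differed by over 1%. A further 8 columns with values of a library stayed unused.

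Bins are 99 bases long. Their cytosine number equals C plus G of TAIR10.1 in 100% of the listed nuclear bins, so TAIR10.1 genes were used. Levels of a gene or cluster pool the calls of its listed bins. For a level of 0, the upper limit is 3 calls over all calls. Copies were searched with blastn 2.17.0. Other software was pandas 2.3.3, numpy 2.4.6 and matplotlib 3.10.9. The script of the exact test was tested on simulated data with known differences.

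The members and gene lists were chosen with earlier results of these data known. The text names the 6 genes with every listed bin, the genes between them, the 5 others of both lists with the largest absolute pooled difference, and the 3 genes nearest to each cluster. Coverage minimums, windows, adjustment, thinning, removal of the most methylated calls 1 fragment could give, counting a read about once, means of bins and centring were tried, and, chosen after seeing the data, bins with calls at 90% or more of the cytosines, bins without a copy and clusters without 1 gene. Over the listed bins the depth was 24091300 calls for Col-0 and 24269108 for miP1a-OX.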

Additional observations from a re-analysis of the deposited data

How the results depend on the processing

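No paired analysis was possible because there was 1 library per genotype, which also means that none could be left out. The 19 listed bins became 2 with the genes alone, 12 with 1000 bases upstream, 12 when the deeper library was thinned, 3 with Benjamini-Hochberg adjustment, 5 without the methylated calls that 1 DNA fragment could give (3 in their own direction, 2 turned) and 0 when a read counted about once. Of the 2 turned bins, that of AT1G52000 starting at 19337501 lost more calls than 1 fragment could give. Bins that differed by 0.4 or more numbered 0, and 2 did by 0.2 or more. The pooled difference of the chromosome 1 cluster became +10.9 points as a mean of bins, +2.51 without 1 fragment, +2.02 less the median of all listed nuclear bins and +5.23 over bins with calls at 90% or more of the cytosines. That of the chromosome 2 cluster became -0.413 with 1000 or 2000 bases upstream and -2.82 less that median, which is of single bins and not pooled. The chromosome 1 minus chromosome 2 difference became 9.02 with 1000 and 7.70 with 2000 bases upstream, and 9.30 as a mean of bins. It became 0.472 without 1 fragment, 2.55 over bins with calls at 90% or more of the cytosines, 7.70 without JAL22 and -0.204 without JAL23. Without 1 fragment the difference turned at MBP2 (-6.07) and JAL23 (+1.45), and at 5 bins, those of AT1G52000 starting at 19337501 (-22.6), MBP2 at 19347101 (-6.07), JAL22 at 16419301 (-0.372) and JAL23 at 16422801 (+5.92) and 16423101 (-0.476). At 19337501 the reduced library had calls at 14 of 46 cytosines and at 16422801 at 13 of 32. More was removed there than 1 fragment could give, so their values, and those of their genes and clusters, overstate its possible part. Of the other 14 bins, 3 kept p of at most 0.01 there. The 128 bins of both lists became 45 with the genes alone (18 higher) and 80 with 1000 bases upstream. The causes were not tested. Centring could not change a difference between clusters, and no bin of the chromosome 2 genes themselves was listed, so neither gave a value. The depth, 46 to 576 calls per bin and library, limits what can be told of bins near 0.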

Other observations

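Genes outside the rule for named genes, chosen after their values were seen, gave these values. TGG2, one of the main myrosinases of leaves, had 4 listed bins, all in the gene and all lower in miP1a-OX. In Col-0 81 of 1513 calls were methylated (5.35%) and in miP1a-OX 2 of 1636 (0.122%), a difference of -5.23 points (-6.49 to -4.16). Each of these bins had 12 to 25 methylated calls in Col-0 among 36 to 49 cytosines. TGG1, its neighbour on chromosome 5 and the other main myrosinase of leaves, had 8 listed bins, 4 higher and 4 lower, with pooled levels of 3.33% and 3.66%. In each of the 7 bins inside TGG1, one library had 0 or 1 methylated calls, in 4 of them miP1a-OX and in 3 Col-0. The bin starting at 9081101 had 15 of 218 calls in Col-0 against 0 of 252 in miP1a-OX, and that starting at 9081401 had 0 of 317 and 22 of 418. The part that 1 DNA fragment could have in the calls of the TGG2 and TGG1 bins was not tested.

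MIR842 and MIR846, microRNA genes known to target jacalin lectin transcripts in Arabidopsis, share 1 listed bin upstream (chromosome 1, 22574501 to 22574599). It had 16 of 280 methylated calls (5.71%) in Col-0 against 0 of 315 in miP1a-OX (a limit of 0.952%). The bin holds 41 cytosines, and the part that 1 DNA fragment could have in these calls was not tested. ESM1 holds the bin with the largest absolute difference in both lists, -71.4 points, with 11 of 14 calls in Col-0 against 1 of 14 in miP1a-OX. Each library had calls at only 14 of its 31 cytosines, and whether these are the same cytosines is not given. The intervals were 49.2 to 95.3% and 0.181 to 33.9%.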
